A study of Homo sapiens with 5 samples.

Results

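The genes described here are 8 inhibitors of proteases that airway epithelium is known to make: PI3, SLPI, SERPINA1, SERPINA3, SERPINB1, SERPINB6, CST3 and CSTB. They were taken by symbol from the 58929 genes of the deposited tables, and all 8 were found, each in 1 row. PI3 entered the set for its count in the library with RBMS1 overexpression, so its values in that library and its control are given as a description. The others were named for their function, with earlier results of these data known.

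The cells were A549, a line established from a human lung adenocarcinoma, with stable depletion or overexpression of RBMS1, which binds RNA. The study's design text calls the 5 libraries ribosome footprint profiling, although the molecule label reads total RNA and a fragmented total RNA input is also described. There were 4 groups: a short hairpin (sh) control for knockdown, RBMS1 knockdown with the hairpins sh1088 and sh1196, a control named pCDH, and RBMS1 overexpression, named R1A. Each library was the only one of its kind, except that both hairpin libraries form the knockdown group. All cells were grown in F12K medium with serum and given cycloheximide (100 ug/mL, 15 min), and lysates were digested with RNase I for 5 min before fractions with single ribosomes were collected. The labels do not say whether the cells are clones or pools, nor whether the hairpin libraries came from separate cultures, so a p-value here reflects no more than the spread among these libraries, which may be technical.

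Antiproteases limit the enzymes that cut proteins at an airway surface. PI3 (elafin) and SLPI (secretory leukocyte protease inhibitor) are small secreted proteins built on the whey acidic protein (WAP) fold, and both block neutrophil elastase. Both are known as genes that epithelial cells induce under inflammatory cytokines. Serpins act by a different route: the protease cuts a loop of the serpin and is trapped on it. SERPINA1 (alpha-1 antitrypsin) and SERPINA3 (alpha-1 antichymotrypsin) are secreted acute phase proteins, while SERPINB1 and SERPINB6 stay inside the cell. The cystatins CST3, which is secreted, and CSTB, which is cytosolic, inhibit cysteine cathepsins.

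In GENCODE release 29 (build GRCh38, which may not be the authors' build), several members lie near each other. PI3 (ENSG00000124102.5) lies on chromosome 20 from 45174876 to 45176544 on the plus strand. SLPI (ENSG00000124107.5) lies 75.7 kb further on, from 45252239 to 45254564 on the minus strand. CST3 is on the same chromosome from 23626706 to 23638473. SERPINA1 (chromosome 14, 94376747 to 94390693) and SERPINA3 (94612377 to 94624055) are 222 kb apart, and SERPINB1 (chromosome 6, 2832332 to 2842006) and SERPINB6 (2948159 to 2972165) are 106 kb apart. CSTB lies on chromosome 21 from 43772511 to 43776445. SERPINA3 overlaps AL049839.2 and CST3 overlaps AL121894.2 on the same strand, so expected counts of these members could be split with those genes and are uncertain.

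The 250 bases before the start annotated in RefSeq are shown for SERPINA3 and CST3. They were picked because they lay on opposite sides of 0 between the overexpression library and its control. Sequences are from RefSeq (GRCh38.p14), where 5 of the 8 members had an entry (SERPINA1, SERPINA3, SERPINB1, SERPINB6 and CST3). Capitals mark matches to any of 5 short motifs searched on both strands. The motifs were TTCNNNGAA for STAT factors, TGANTCA for AP-1, TATAAA for the TATA box, GGGCGG for the GC box, and CCAAT. In these 2 sequences no match overlaps another. The SERPINA3 region is chr14:94612141-94612390 (plus strand) and the CST3 region is chr20:23637956-23638205 (minus strand). By the GENCODE coordinates above, the CST3 region lies within its gene, and the end of the SERPINA3 region overlaps its gene.
SERPINA3: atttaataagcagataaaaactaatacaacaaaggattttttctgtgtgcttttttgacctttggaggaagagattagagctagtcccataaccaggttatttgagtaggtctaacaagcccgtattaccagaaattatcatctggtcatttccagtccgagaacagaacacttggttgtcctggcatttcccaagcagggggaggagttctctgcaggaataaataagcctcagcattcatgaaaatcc
CST3: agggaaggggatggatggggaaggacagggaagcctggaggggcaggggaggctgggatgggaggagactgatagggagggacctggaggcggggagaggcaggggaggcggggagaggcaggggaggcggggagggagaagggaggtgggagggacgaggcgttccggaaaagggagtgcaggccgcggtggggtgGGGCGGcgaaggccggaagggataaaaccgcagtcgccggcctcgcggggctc
The SERPINA3 region had 40.0% G and C and held 0 matches to any of the 5 motifs. The CST3 region had 70.8% G and C and held 1 GC box. Over all 35116 upstream regions of this length in the table, the median was 58.0% G and C, and 42.6% held a GC box, 32.0% CCAAT, 10.7% TATAAA, 6.57% TTCNNNGAA and 6.57% TGANTCA. The absence of a match says only that these letters are not in this window.

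The libraries held between 10327747 and 13980843 expected counts, and their composition differed. The share of nuclear protein-coding genes was between 37.7% of counts in the sh control and 66.3% in the pCDH control, and AL355075.4, which overlaps the RNase P RNA gene, took from 7.26% in sh1196 to 30.0% in the sh control. The mean fragment length, derived from gene and effective length, ran from 40.9 nt in R1A to 52.3 nt in the pCDH control. The part of these differences in the results was not tested. RBMS1, the targeted gene, stood at 31.0 CPM (counts scaled by TMM over the 5 libraries to a common total) in the sh control, against 18.3 CPM in sh1088 and 13.4 CPM in sh1196. It stood at 24.7 CPM in the pCDH control and 37.0 CPM in R1A. By scaled counts it was thus lower in both knockdown libraries and higher in R1A than in their controls. The difference in R1A was under 2-fold, at a log2 ratio of 0.58 (counting interval 0.39 to 0.78). It came from 439 counts against 431 in the pCDH control, so its size rests on the scaling. RBMS1 was 2996th from the top of 10437 genes in that ratio, so the overexpression label has limited backing in these counts. The 6 epithelial markers were all detected, and their summed level ran from 2301 CPM in sh1088 to 3549 CPM in the sh control. Of 6 lung lineage markers, NKX2-1 and SFTPA1 had 0 counts in every library, where 3 counts would be 0.172 to 0.374 CPM depending on the library, and SFTPB had 1 count in all. FOXA2 was the 1 lineage marker above 5 CPM.

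PI3 was highest in a knockdown library and lowest in the pCDH control. In bulk footprint libraries such as these, fewer cells with PI3 RNA, less of it per cell and fewer ribosomes on it cannot be told apart. Its counts were 98 for the sh control, 729 for sh1088, 65 for sh1196, 1 for the pCDH control and 437 for R1A. As scaled levels these were 12.2 CPM (95% counting interval 9.91 to 14.9), 75.8 CPM (70.4 to 81.5), 5.04 CPM (3.89 to 6.42), 0.0574 CPM (0.00145 to 0.320) and 36.8 CPM (33.4 to 40.4). The order was thus sh1088, R1A, sh control, sh1196 and pCDH control. Counting intervals of neighbours in that order did not overlap, but the intervals leave out all error beyond counting, and reads copied by PCR are not independent molecules. Both R1A and the sh control lay between the 2 knockdown libraries, and only the pCDH control lay outside that range.

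The count that brought PI3 into the set is a contrast of 437 against 1. The log2 ratio of R1A to the pCDH control was 9.33 (95% counting interval 6.84 to 14.6), which rests on that single count and is the contrast the choice of PI3 used. By the authors' TPM, which is scaled to gene length and to the whole library, PI3 stood at 0.11 in the pCDH control and 43.9 in R1A. Taken against the sh control, the log2 ratio of R1A was 1.59. Set against sh1088, R1A was lower for PI3 by a factor of 2.06 (1.83 to 2.33). PI3 was the 1 member of 7 at least 2-fold lower in R1A than in sh1088, where 5.81% of 10385 genes were. At least 2-fold higher were 0 members, where 7.16% of genes were. Of the knockdown libraries, sh1088 was the one with more PI3. By scaled level R1A lay above sh1196 for PI3 (36.8 CPM against 5.04 CPM) and for every other member but CST3 (242 CPM against 357 CPM). Members past 2-fold were not counted against sh1196. The PI3 level differed between the 2 control libraries as well: the pCDH control was lower than the sh control by a factor of 213 (37.3 to 8489).

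SLPI showed a different low point. The sh control had 615 counts of SLPI, sh1088 had 1240, sh1196 had 65, the pCDH control had 881 and R1A had 1219. The scaled levels were 76.6 CPM (70.7 to 82.9), 129 CPM (122 to 136), 5.04 CPM (3.89 to 6.42), 50.5 CPM (47.3 to 54.0) and 103 CPM (97.0 to 109) in that order. Thus 4 of 5 libraries lay within 50.5 to 129 CPM, and sh1196 lay apart below them. No counting intervals of SLPI overlapped. SLPI was lower in sh1196 than in sh1088 by a factor of 25.6 (19.9 to 33.4), and PI3 by a factor of 15.0 (11.7 to 19.7).

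**Figure D1:**
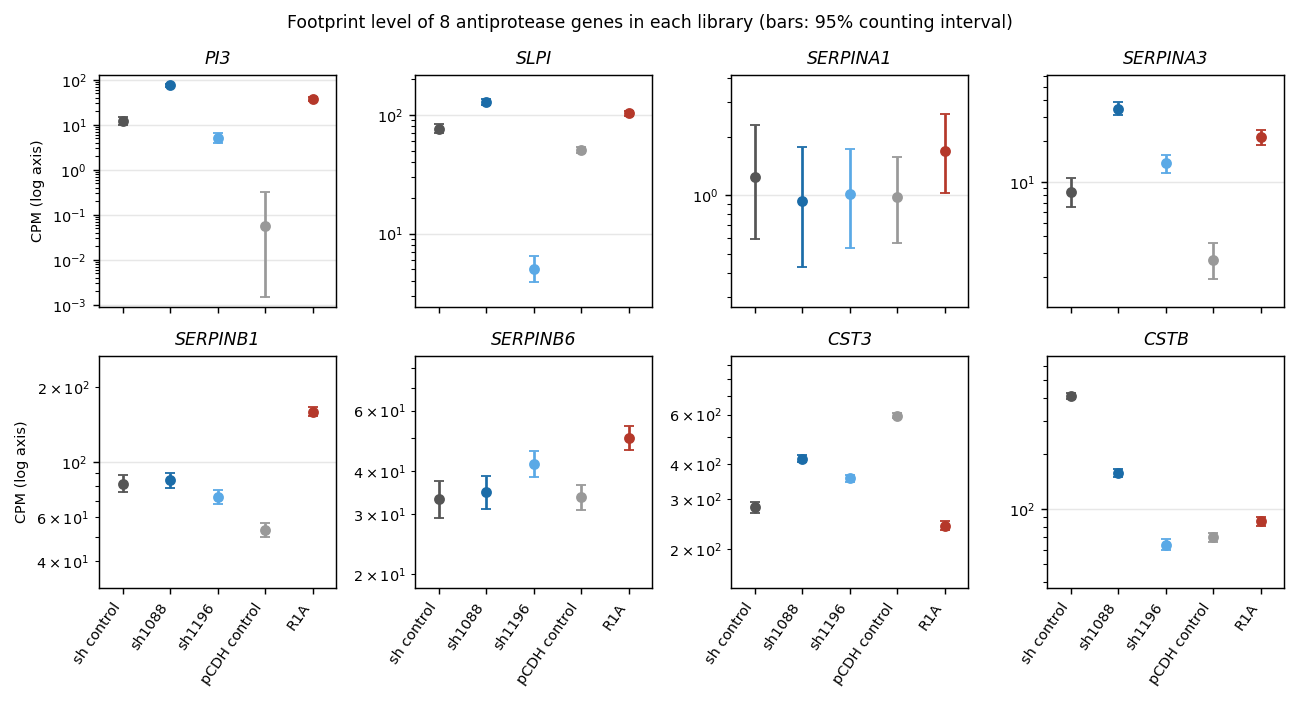
CPM of each of the 8 genes in each of the 5 libraries, on a log axis that differs between panels; points are single libraries and bars are 95% counting intervals. PI3 is lowest in the pCDH control at 0.0574 CPM and highest in sh1088 at 75.8 CPM, SLPI is lowest in sh1196, and SERPINB6 stays between 33.1 and 50.0 CPM.

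SERPINA3, which inhibits cathepsin G and chymotrypsin-like enzymes, had its 2 highest levels in the same libraries as PI3. It stood at 8.47 CPM (6.58 to 10.7) in the sh control, 34.5 CPM (30.9 to 38.5) in sh1088, 13.6 CPM (11.7 to 15.8) in sh1196, 2.64 CPM (1.93 to 3.52) in the pCDH control and 21.3 CPM (18.8 to 24.1) in R1A. These levels rest on 68, 332, 176, 46 and 253 counts. Both knockdown libraries lay above both controls, as did R1A. The highest library was 13.1 times the lowest.

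SERPINA1, the main circulating inhibitor of neutrophil elastase, was close to the limit of detection. The libraries held 9 to 20 counts of it, which is 0.936 to 1.68 CPM. All 5 counting intervals overlapped, so no difference between libraries was detectable at this depth. It failed the minimum mean of 5 CPM used for ratios between single libraries, and its ratios are left out of the counts of members below.

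The intracellular serpins differed in range. SERPINB1, an inhibitor of neutrophil serine proteases, stood at 81.9 CPM in the sh control, 84.7 CPM in sh1088, 72.3 CPM in sh1196, 53.6 CPM in the pCDH control and 159 CPM in R1A. R1A lay above the other 4 libraries, of which the sh control had a counting interval (75.8 to 88.5) that overlapped those of sh1088 and of sh1196 (67.8 to 77.1). SERPINB6, which inhibits trypsin-like enzymes and cathepsin G, stood at 33.1 CPM in the sh control, 34.7 CPM in sh1088, 42.0 CPM in sh1196, 33.6 CPM in the pCDH control and 50.0 CPM in R1A. That is a range of 1.51 times, and the intervals of the lowest 3 libraries overlapped, as did those of sh1088 and sh1196. For comparison, the median range over 11620 genes with at least 5 CPM in a library and no library at 0 was 2.35 times, narrower than the 2.97 times of SERPINB1, and 90.2% of them had a wider range than SERPINB6. A wider range than that of SLPI was found for 1.45% of these genes, than SERPINA3 for 2.96% and than CSTB for 7.31%.

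Of the cystatins, CST3 (cystatin C) was the most abundant member. It stood at 281 CPM in the sh control, 419 CPM in sh1088, 357 CPM in sh1196, 595 CPM in the pCDH control and 242 CPM in R1A, so the pCDH control was highest and R1A lowest. CSTB, the cytosolic cystatin whose loss causes a progressive myoclonus epilepsy, ran the other way between controls. Its level was 412 CPM in the sh control, 158 CPM in sh1088, 63.9 CPM in sh1196, 70.0 CPM in the pCDH control and 85.5 CPM in R1A. The sh control thus lay apart above the other 4 libraries, including the other control, and the intervals of sh1196 and the pCDH control overlapped.

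Levels of different genes were compared by TPM. CST3 ranked first among the 8 members in all 5 libraries, from 78.6 TPM in the sh control to 775 TPM in the pCDH control. SLPI was next in sh1088 (83.7 TPM), the pCDH control (90.1 TPM) and R1A (112.5 TPM) but in place 7 in sh1196 (5.62 TPM). PI3 was in place 3 in sh1088 (53.6 TPM), in place 4 in R1A (43.9 TPM) and last in the pCDH control. SERPINA1 was last in the other 4 libraries. The length that RSEM, the authors' counting tool, gave CSTB was 2157 to 2181 nt, in a gene whose 4 annotated transcripts run from 1855 to 3744 nt, against 551 nt for PI3 and 596 nt for SLPI. The TPM of CSTB depends on that length.

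The knockdown comparison asked which members carry more or fewer counts when RBMS1 is depleted. In edgeR's quasi-likelihood test 0 of 8 members passed a Benjamini-Hochberg adjusted p of 0.05, where 0.0% of 14913 genes passed. At an unadjusted p under 0.05 there was 1 member, CSTB, against 5.87% of all genes tested. DESeq2 called 0 of the members, where 0.104% of 14418 genes passed, and limma-voom called 0 genes. The edgeR fit leaves 1 residual degree of freedom, and its single control library has no replicate. Its spread is taken from the 2 knockdown libraries and, in part, borrowed from other genes.

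CSTB had the lowest unadjusted p of the members in that fit, at a log2 change of -1.86 (SE 0.62, unadjusted p = 0.0170, edgeR adjusted p = 0.828), lower in 2 of 2 libraries. The log2 ratios were -1.39 (95% counting interval -1.48 to -1.30) in sh1088 and -2.69 (-2.80 to -2.58) in sh1196. The authors' deposited table gives -1.87 with an adjusted p of 0.000377 and marks CSTB as down. Taken against the pCDH control, the direction turned, to 0.68. SERPINA3 stood at 1.54 (SE 0.67, edgeR adjusted p = 0.828), higher in 2 of 2 libraries, with 2.03 (1.65 to 2.43) in sh1088 and 0.69 (0.28 to 1.11) in sh1196. With the pCDH control it stood at 3.20.

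For PI3 and SLPI the hairpins pointed in opposite directions. PI3 stood at 1.76 with an SE of 2.06 (edgeR adjusted p = 0.902), made of 2.64 (2.33 to 2.95) in sh1088 and -1.28 (-1.75 to -0.81) in sh1196. SLPI stood at -0.16 with an SE of 2.21 (edgeR adjusted p = 0.992), made of 0.75 (0.61 to 0.89) in sh1088 and -3.93 (-4.32 to -3.56) in sh1196. Both ratios of a gene share the sh control. In sh1088 against the sh control 2 of 7 members (PI3 and SERPINA3) were at least 2-fold higher, where 3.35% of 10455 genes were, and CSTB was the 1 lower, where 3.86% were. In sh1196 against the sh control 0 were higher, where 10.4% of 10486 genes were, and 3 (SLPI, CSTB and PI3) were lower, where 13.1% were. SERPINA1 stood at -0.32 (SE 1.08), SERPINB1 at -0.03 (SE 0.47), SERPINB6 at 0.25 (SE 0.45) and CST3 at 0.50 (SE 0.54), none past the threshold.

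The difference between the hairpins was therefore set out on its own, as 1 library against 1. Of 7 members with a mean of at least 5 CPM, 4 were at least 2-fold lower in sh1196 than in sh1088, where 6.93% of 10464 genes were, and 0 were at least 2-fold higher, where 6.32% were. The log2 ratios were -4.68 (-5.06 to -4.32) for SLPI, -3.91 (-4.30 to -3.54) for PI3, -1.34 (-1.61 to -1.07) for SERPINA3 and -1.30 (-1.43 to -1.18) for CSTB. SLPI was the 21st lowest of the 10464 genes and PI3 the 34th lowest. SERPINB1 (-0.23), CST3 (-0.23) and SERPINB6 (0.27) lay near the median of all genes, 0.04. Scaling by library size alone moved the median of all genes by 0.61, and SERPINA3 (-0.73) and CSTB (-0.69) were then under 2-fold while SLPI (-4.07) and PI3 (-3.30) were not. RBMS1 itself stood at -0.45 (-0.76 to -0.14) between these libraries. This contrast has no replicate check.

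**Figure D2:**
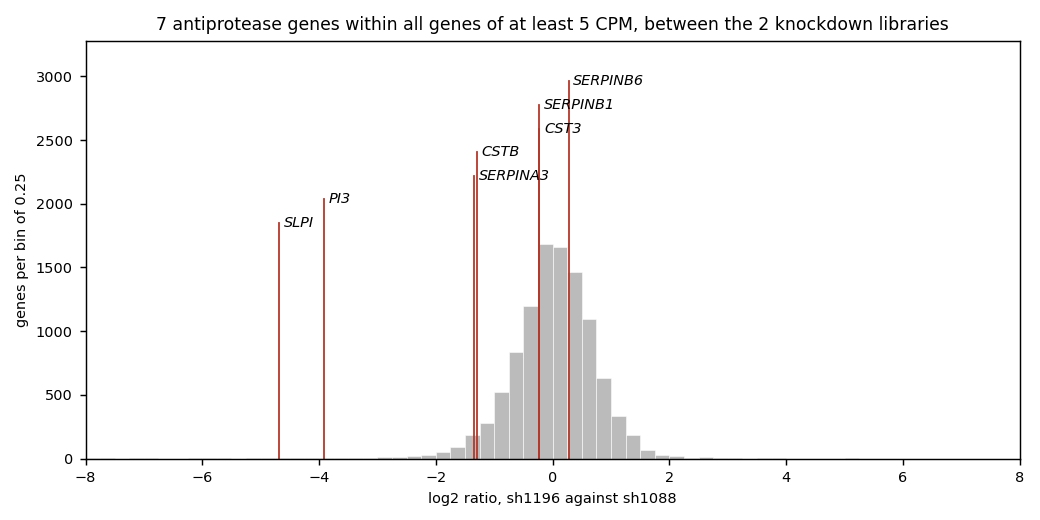
Histogram of the log2 ratio of sh1196 to sh1088 over genes with a mean of at least 5 CPM (grey bars, number of genes per bin of 0.25, ratios beyond 8 placed in the end bins), with a red line for each of 7 members. SLPI at -4.68 and PI3 at -3.91 lie in the far left tail, and SERPINB1, CST3 and SERPINB6 lie within the bulk.

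Overexpression was compared with the pCDH control, again 1 library against 1. Of the 7 members, 4 were at least 2-fold higher in R1A, where 14.6% of 10437 genes were, and 1 was at least 2-fold lower, where 13.7% were. PI3 is 1 of the 4 and was chosen on this contrast. The others were SERPINA3 at a log2 ratio of 3.01 (2.56 to 3.50), SERPINB1 at 1.57 (1.46 to 1.69) and SLPI at 1.02 (0.90 to 1.15). CST3 was the lower one at -1.30 (-1.36 to -1.24). SERPINB6 stood at 0.58 (0.41 to 0.74), CSTB at 0.29 (0.17 to 0.41) and SERPINA1 at 0.79 (-0.22 to 1.81).

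In the authors' deposited table for this arm PI3 (8.53), SERPINA3 (2.61) and SERPINB1 (1.21) are marked up and CST3 (-1.36) down, and the other 4 members carry no mark. SLPI passed 2-fold by TMM scaling but not by library size alone (0.89), by scaling to nuclear protein-coding genes (0.98) or as TPM with a pseudocount of 1 (0.32). As TPM, SERPINB1 stood at 0.67, SERPINB6 turned to -0.12 and CSTB to -0.38, on a scale that moved the median of all genes by -0.78. With the sh control in place, SERPINA3 stood at 1.33, SERPINB1 at 0.96, SLPI at 0.42 and CST3 at -0.22, and CSTB turned to -2.27. Transcripts richer in G and C had lower ratios in this arm (Spearman rho = -0.57 across 9977 genes, which are not independent replicates). Member transcripts had 43.5% to 54.0% G and C. With that trend taken out SERPINA3 stood at 3.28, SERPINB1 at 1.26, SLPI at 1.18 and CST3 at -1.54.

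The controls differed from each other for several members. Of 7 members, 3 were at least 2-fold lower in the pCDH control than in the sh control, where 19.0% of 10593 genes were, and 1 was at least 2-fold higher, where 17.2% were. PI3 is 1 of the 3, and its pCDH control count is part of the contrast that chose it. The lower ones were PI3 at -7.73 (-13.1 to -5.22), CSTB at -2.56 (-2.65 to -2.46) and SERPINA3 at -1.68 (-2.25 to -1.12), and the higher one was CST3 at 1.08 (1.02 to 1.15). By library size alone the median of all genes moved by 0.85, SERPINA3 stood at -0.83 and was under 2-fold, and SLPI (0.25) and SERPINB1 (0.24) lay above 0. As TPM with a pseudocount of 1 that median moved by 1.94, and SERPINA3 (0.40), SLPI (1.59) and SERPINB1 (1.64) lay above 0, while PI3 (-2.45) and CSTB (-0.35) lay below. This comparison shares its pCDH library with the overexpression arm and its sh control with the knockdown arm, so the 3 sets of ratios are not independent.

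**Figure D3:**
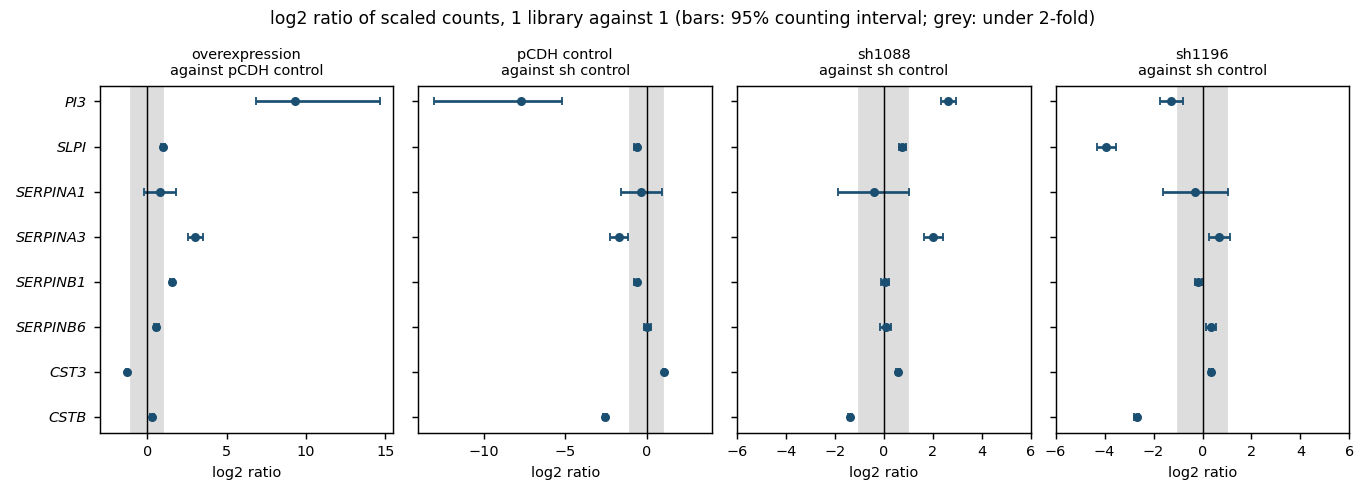
The log2 ratio of each member in 4 comparisons of 1 library with 1, with 95% counting intervals; the grey band marks changes under 2-fold, and the horizontal scale differs between panels. PI3 is at 9.33 in R1A against the pCDH control and at -7.73 in the pCDH control against the sh control, while SERPINB6 stays within the band in all 4.

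The third fit asked which members follow the RBMS1 level over all 5 libraries, coded -1 for knockdown, 0 for the controls and 1 for overexpression, and adjusted for which vector system was used. PI3 was not tested there, since the fit uses the count that chose it. In edgeR 0 of the other 7 members passed, where 0.00632% of 15827 genes did, and at an unadjusted p under 0.05 there was 1 member, CSTB, against 6.60% of genes. DESeq2 called 0 members and 0.305% of 17692 genes. CSTB stood at 1.25 per level (SE 0.51, unadjusted p = 0.0334, edgeR adjusted p = 0.729), CST3 at -0.81 (SE 0.43, edgeR adjusted p = 0.738) and SERPINB1 at 0.73 (SE 0.47, edgeR adjusted p = 0.765). SLPI stood at 0.56 (SE 1.48), SERPINA3 at 0.56 (SE 1.57), SERPINA1 at 0.55 (SE 0.96) and SERPINB6 at 0.13 (SE 0.40). RBMS1 itself stood at 0.80 per level (SE 0.38), under 2-fold, and did not pass in edgeR. Without sh1088, SLPI stood at 2.44, in a fit where each group is 1 library. The spread there rests on 1 residual degree of freedom and on what edgeR borrows from other genes. Without sh1196 SLPI stood at 0.12. CSTB stood at 1.49 per level without sh1088, at 0.83 without sh1196 and at 0.11 with no vector term.

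Other inhibitors of these protease classes were looked up from lists chosen by function, with earlier results of these data known. Of 8 further genes of the WAP fold, 0 reached 5 CPM in any library and 5 had 0 counts throughout. The highest value among them was 0.388 CPM, for WFDC3 in sh1196, and WFDC2 reached at most 0.374 CPM. Of 21 other serpins, 7 reached 5 CPM. SERPINE2, an inhibitor of thrombin and other serine proteases, stood at 81.2 CPM in the sh control, 165 CPM in sh1088, 279 CPM in sh1196, 136 CPM in the pCDH control and 217 CPM in R1A. SERPINB9, the granzyme B inhibitor, was at 33.9 CPM in the sh control and 34.8 CPM in R1A, against 9.98 to 15.1 CPM in the other 3.

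In knockdown 0 of 9 measured serpins passed, with a median log2 change of -0.40, where the median of all genes was 0.07. CAST (calpastatin, the calpain inhibitor) was listed with the other cystatins, although it is not a cystatin, and had the highest level there. It stood at 516 CPM in R1A against 156 to 198 CPM in the other 4 libraries. CST1, a secreted cystatin, stood at 11.6 CPM in the sh control, 17.6 CPM in sh1088 and 0.775 CPM in sh1196. It thus had a low value in sh1196, as SLPI did, and stood at 1.43 CPM in the pCDH control and 0.421 CPM in R1A.

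Among 12 Kunitz and Kazal type inhibitors, SPINT2, TFPI2, APLP2 and TFPI exceeded 100 CPM in every library. SPINT2, which restrains membrane serine proteases, was highest in the pCDH control at 977 CPM and lowest in the sh control at 297 CPM, with 460 CPM in R1A. In overexpression 3 of 5 measured members of this list were at least 2-fold lower and 0 higher, where 13.7% of all genes were lower. The count was 3 of 5 as TPM too, where 37.1% of all genes were lower. In the pCDH control against the sh control 3 of 5 were at least 2-fold higher (17.2% of all genes) and 0 lower (19.0%). By library size alone 3 were higher and as TPM 5, where 43.5% and 83.0% of all genes were. Both contrasts share the pCDH control. Of 4 measured inhibitors of metalloproteases, 0 passed 2-fold in either direction in overexpression, with TIMP1 at -0.34 and TIMP2 at -0.68. As TPM 2 of 4 were lower (37.1% of all genes). In knockdown 0 of 6 and 0 of 5 genes of these lists passed edgeR, with medians of 0.87 and 0.71.

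The proteases that PI3 and SLPI are known to block had few or no counts. ELANE, neutrophil elastase, had 2 to 15 counts, at most 0.860 CPM, and CTSG, cathepsin G, had 0 counts in every library. The cathepsins that CST3 and CSTB inhibit were abundant. CTSB stood at 362 CPM in the sh control and at 542 to 621 CPM in the other 4 libraries. CTSL stood at 143 CPM in the sh control, 303 CPM in sh1088, 455 CPM in sh1196, 669 CPM in the pCDH control and 340 CPM in R1A.

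Of 11 cysteine cathepsins and related enzymes measured in knockdown, 0 passed edgeR and 10 lay above 0, with a median of 0.90 against 0.07 for all genes. In the pCDH control against the sh control 4 of 9 were at least 2-fold higher (17.2% of all genes) and 0 lower (19.0%). In R1A against the pCDH control 3 of 9 were lower (13.7% of all genes) and 0 higher (14.6%), median -0.60 against 0.06. By library size alone and as TPM, 9 of 9 were higher in the first of these ratios, where 43.5% and 83.0% of all genes were. In the other ratio 4 and 5 of 9 were lower, where 16.8% and 37.1% of all genes were. These comparisons share libraries. CST3 stood at 0.50, 1.08 and -1.30 in the 3 comparisons, and CSTB at -1.86, -2.56 and 0.29. Among 17 epithelial serine proteases 2 reached 5 CPM, PLAU (urokinase) at 115 to 288 CPM and PLAT.

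A list of 26 genes that epithelial cells induce under cytokines was set beside PI3 and SLPI. In R1A against the pCDH control 13 of 19 measured genes were at least 2-fold higher and 1 lower, with a median of 1.98, where 14.6% of all genes were higher and 13.7% lower. By library size alone 12 were higher and as TPM 11, where 11.6% and 3.17% of all genes were. In the pCDH control against the sh control 11 of 18 were lower and 1 higher, with a median of -1.64, where 19.0% of all genes were lower and 17.2% higher. By library size alone 7 were lower and 4 higher, where 6.27% and 43.5% of all genes were. As TPM 1 was lower and 7 higher, with a median of 0.56, where 1.11% and 83.0% of all genes were. In knockdown 0 of 22 passed edgeR (median 0.15). LCN2 (lipocalin 2, an iron-binding antimicrobial protein) stood at 239 CPM in the sh control, 1219 CPM in sh1088, 73.3 CPM in sh1196, 70.0 CPM in the pCDH control and 399 CPM in R1A. This is the order of libraries found for PI3, with the last pair close to each other.

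CXCL5 was lowest in the pCDH control (417 CPM) and highest in R1A (1700 CPM). CXCL8 stood at 34.3 CPM in the pCDH control and 174 to 335 CPM elsewhere, and C3, the complement factor, at 138 CPM there and 146 to 475 CPM elsewhere. SOD2, the mitochondrial superoxide dismutase, was at 30.1 CPM there and 159 to 392 CPM elsewhere. Between the hairpins 6 of 20 measured genes were at least 2-fold lower in sh1196 and 1 higher, where 6.93% and 6.32% of all genes were. Their median was -0.15, against 0.04 for all genes, and 9 of the 20 lay above 0. By library size alone 5 were lower and 5 higher, where 2.20% and 28.7% of all genes were, and as TPM 5 were lower and 8 higher, where 1.11% and 32.3% were. The lower ones, named here after their values were seen apart from LCN2, were FGB at -5.99, LCN2 at -4.06, FGG at -3.21, FGA at -2.83, CFB at -1.70 and BIRC3 at -1.30. FGA, FGB and FGG encode the chains of fibrinogen, an acute phase protein. Among the genes named from these lists, CAST, SPINT2, TIMP2, CTSB, C3, SOD2, CFB, SAA1 and CD68 overlap another gene on the same strand. Their counts are therefore uncertain.

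The genes whose pattern over the 5 libraries was most like that of PI3 were found by Euclidean distance between centred log2 CPM values (prior count 2), among 11748 other genes with at least 5 CPM in a library. Nearest was AL591806.3 (distance 1.74), then AL034430.1 (2.04), SNURF (2.39), TCN1 (2.46) and SAA1 (2.52). The first 3 each overlap other genes on the same strand and had 0 counts in the pCDH control, so their counts could have been split with those genes. TCN1, a vitamin B12 binding protein of secretions, stood at 5.60 CPM in the sh control, 24.1 CPM in sh1088, 2.02 CPM in sh1196, 0.402 CPM in the pCDH control and 22.8 CPM in R1A. SAA1, an acute phase protein that was also on the cytokine list, had 8, 66, 15, 0 and 44 counts in that order. SAA1 too overlaps another gene on the same strand, so its counts are uncertain. Among the members SERPINA3 was nearest to PI3, at place 99 with a distance of 4.15.

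Nearest to SLPI were FILIP1 (0.76), CA9 (0.91) and ANKRD30A (0.92), each with 3 to 7 counts in sh1196 against 22 to 226 in the other libraries. Nearest to SERPINA3 were FSD1L (0.57), PLEKHA8 (0.65) and AC006064.5 (0.70). Of these 6 genes 5, all but CA9, overlap another gene on the same strand. With 5 libraries of 4 groups these distances describe these libraries alone.

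**Figure D4:**
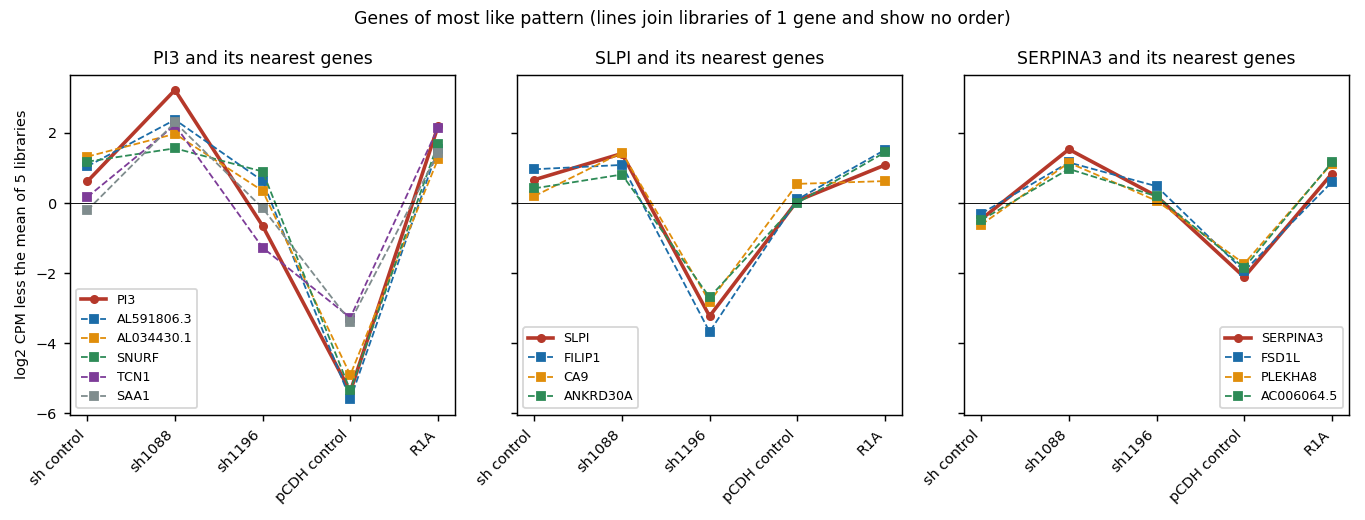
Centred log2 CPM (vertical axis, log2 CPM less the gene's mean over the 5 libraries) of PI3, SLPI and SERPINA3 (red) and of their nearest genes (dashed) in each library. PI3 and its nearest genes are lowest in the pCDH control, SLPI and its nearest genes in sh1196, and SERPINA3 and its nearest genes in the pCDH control.

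Markers of other cells that make antiproteases were measured beside these values. Of 10 immune markers PTPRC and AIF1 had 0 counts in all libraries, and MPO had 2 counts in all. Their summed level ran from 32.4 CPM in the sh control to 110 CPM in the pCDH control and was mostly CD68 (21.4 to 87.8 CPM), a lysosomal protein not limited to immune cells. S100A9, which is also made by inflamed epithelium, stood at 3.24 CPM in the sh control, 9.67 CPM in sh1088, 0.310 CPM in sh1196, 0 in the pCDH control and 2.19 CPM in R1A. It was highest in the library where PI3 and SLPI were highest, and its part in their values was not tested. Of 5 keratinocyte markers KRT14 and KRT1 had 0 counts, KRT5 had 3 counts, all in sh1196, and 2 reached 5 CPM. KRT10, a keratin of differentiated epidermis, stood at 84.6 CPM in the sh control, 48.7 CPM in sh1088, 18.1 CPM in sh1196 and in the pCDH control, and 26.8 CPM in R1A. TP63, a factor of basal epithelial cells, stood at 7.22, 4.26, 1.40, 2.70 and 16.9 CPM for the sh control, sh1088, sh1196, the pCDH control and R1A. The list's summed level ran from 19.8 CPM in sh1196 and 20.8 CPM in the pCDH control to 91.8 CPM in the sh control. PI3 was also lowest in the first 2 of these, but highest in sh1088, where the sum was 52.9 CPM. The part of this list in the results was not tested. Summed fibroblast markers were at most 9.81 CPM and endothelial markers at most 1.18 CPM.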

How the data were processed

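Gene values were made by the authors with RSEM: an expected count, a TPM and an FPKM per gene and library, as named per the file headers, with TPM and FPKM adjusted for effective length. The authors' comparison tables, per the file headers, hold a mean normalised signal over samples, a log2 fold change and p-values for each gene. Bowtie, STAR 2.4.2, RSEM 1.3.1 and DESeq2 are listed in the submitters' processing notes without their use. The genome build is not given in the sources used here, nor is the annotation. Of 58929 identifiers, 58656 matched GENCODE release 29, compared without version suffix.

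Expected counts were rounded. Knockdown (against the sh control) and the RBMS1 level (all 5 libraries) were tested with edgeR 4.0.16 (quasi-likelihood, robust, TMM, filterByExpr, Benjamini-Hochberg over all genes tested) in R 4.3.3, with DESeq2 1.42.0 and limma 3.58.1 (voom) as alternatives. Ratios of 1 library to 1 carry an exact conditional 95% interval for counting error and no p. A call there means at least 2-fold at a mean of at least 5 CPM, with TMM over the 5 libraries. Totals of 10327747 to 13980843 counts set the width of the intervals. Named genes were all 8 members, up to 5 genes of highest mean CPM from each further list (1 of them is not reported here), and the 5 (PI3) or 3 (SLPI, SERPINA3) genes of most like pattern. SOD2 has 2 rows, of which the one with more counts was used. The members and lists were chosen with earlier results of these data known.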

Additional observations from a re-analysis of the deposited data

How the results depend on the processing

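No paired analysis was possible because the labels give no replicate numbers that groups share. The alternatives were other scalings, no low-count filter, other tools, the other control and leaving out each hairpin. Of 241 member values under an alternative, 34 had the other sign and 1 newly passed (SLPI in the level fit without sh1088). Of the 34, the 19 from a tested fit or with a main ratio of at least 2-fold are printed below. The others were ratios under 2-fold in the main setting, but some were past 2-fold under the alternative. Examples are CSTB in overexpression with the sh control (-2.27), and SLPI (1.59) and SERPINB1 (1.64) between the controls as TPM. In knockdown 0 genes passed by edgeR with TMM, against 27 by library size alone, 5 by nuclear protein-coding totals, 102 with no filter, 93 with the pCDH control and 15 by DESeq2. In the level fit 1 gene passed, against 36 by library size alone, 89 with no filter, 54 by DESeq2, 0 with no vector term, and 30 to 136 leaving out a knockdown library. In overexpression 1523 genes were higher and 1428 lower, against 331 and 3871 as TPM, 899 higher as FPKM, 928 lower with the GC trend taken out, and 941 higher with the sh control. Between the controls 1826 genes were higher and 2017 lower, against 4605 and 664 by library size alone and 8790 and 118 as TPM. Between the hairpins 661 were higher and 725 lower, against 3002 and 230 by library size alone and 3380 and 116 as TPM. The cause of these moves was not tested.

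In knockdown, SLPI turned to 0.081 by library size alone and 0.42 with the pCDH control. Leaving out each knockdown library gave -3.93 to 0.75 for SLPI, -1.28 to 2.64 for PI3 and -0.18 to 0.047 for SERPINB1. SERPINA1 turned to 0.23 by library size alone, 0.22 as TPM, 0.17 as FPKM and 0.012 with the pCDH control. SERPINB1 turned to 0.50 by library size alone, 0.98 as TPM, 0.41 as FPKM, 0.0039 by nuclear protein-coding totals and 0.57 with the pCDH control. With the pCDH control CST3 turned to -0.60 and CSTB to 0.68. In the level fit SERPINB6 turned to -0.26 by library size alone and SERPINA3 to -0.25 with no vector term, and between the controls SERPINA3 turned to 0.40 as TPM. With 1 library in most groups, depth bounds the counting error only.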
